A study of Mus musculus with 8 samples.

Results

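The genes of the TGFβ and activin ligands and receptors were examined in mouse pancreatic ductal adenocarcinoma (PDAC) cells in which *Smad4*, the shared partner of the receptor-activated SMAD proteins, can be switched off and on. The 10 members were taken by gene name from the count table of 53465 genes and comprise 5 ligand genes (*Tgfb1*, *Tgfb2*, *Tgfb3*, *Inhba* and *Inhbb*) and 5 receptor genes (*Tgfbr1*, *Tgfbr2*, *Tgfbr3*, *Acvr1b* and *Acvr2a*). All 10 were among the 14301 genes that passed the filter on low counts. RNA-seq had been performed on 8 libraries from lines B73 and B87, each derived from a primary pancreatic tumor of the KC-shSmad4 mouse model. This model combines Ptf1a-Cre, which is active in the pancreas, with a Cre-activated tetracycline transactivator linked to the red reporter mKate2, and a doxycycline (Dox)-inducible short hairpin RNA against *Smad4* linked to GFP, among its alleles. Continuous Dox kept cells in the Smad4-off state, and withdrawal of Dox for 5 days gave the Smad4-on state. Cells in both states then received 100 pM recombinant mouse TGFβ1 or 2.5 µM SB505124, named a TGFβ inhibitor by the study, for 24 h. Whether SB505124 also blocked the receptors for activin was not measured here. Each of the 4 groups therefore held 1 library of each line. All groups carried the same alleles, and no group was left untreated. A TGFβ1 effect below is therefore a difference from SB505124, in which added TGFβ1 and absence of the inhibitor cannot be told apart. Each line came from a single tumor, and the *Smad4* hairpin carried by each line was not given in the sources used here.

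TGFβs and activins are secreted dimers that signal through pairs of type II and type I receptor kinases. TGFβs bind TGFBR2 together with TGFBR1, whereas activins, which are dimers of the inhibin β subunits encoded by *Inhba* and *Inhbb*, bind ACVR2A or ACVR2B together with ACVR1B. Both branches phosphorylate SMAD2 and SMAD3, which then join SMAD4 and enter the nucleus. In the pancreas this pathway is known for growth arrest of epithelial cells, for epithelial-mesenchymal transition and for the fibrotic stroma of PDAC, and *SMAD4* is often inactivated in the human disease. The comparisons addressed whether the cells change the message for their own ligands and receptors when they receive TGFβ1, and whether this depends on *Smad4*.

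The promoters of the 3 ligand genes that rose with TGFβ1 are shown because they differ in base composition. Each sequence is the 250 bases before the annotated start, taken from RefSeq on GRCm38.p6 and written 5′ to 3′ on the strand of the gene, and capitals mark CG dinucleotides.
*Inhba* (chr13:16011601-16011850, plus strand): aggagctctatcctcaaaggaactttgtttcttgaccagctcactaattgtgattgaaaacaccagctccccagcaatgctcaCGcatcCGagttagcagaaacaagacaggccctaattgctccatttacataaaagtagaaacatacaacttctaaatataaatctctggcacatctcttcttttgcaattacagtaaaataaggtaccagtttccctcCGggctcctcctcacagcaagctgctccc
*Inhbb* (chr1:119422249-119422498, minus strand): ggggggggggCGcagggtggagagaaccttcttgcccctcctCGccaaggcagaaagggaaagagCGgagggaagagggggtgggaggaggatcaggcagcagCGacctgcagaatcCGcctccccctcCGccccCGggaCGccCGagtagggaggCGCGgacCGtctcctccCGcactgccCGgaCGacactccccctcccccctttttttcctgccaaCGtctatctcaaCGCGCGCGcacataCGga
*Tgfb1* (chr7:25686752-25687001, plus strand): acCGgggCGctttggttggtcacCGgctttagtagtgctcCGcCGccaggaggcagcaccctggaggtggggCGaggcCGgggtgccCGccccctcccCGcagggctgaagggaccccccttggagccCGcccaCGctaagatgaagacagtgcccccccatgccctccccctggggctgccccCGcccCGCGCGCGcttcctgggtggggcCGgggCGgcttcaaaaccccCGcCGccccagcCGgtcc
The *Inhba* promoter was 43.2% G or C and held 3 CG dinucleotides, against medians of 52.4% and 6 over 32851 promoters of this length. The *Inhbb* promoter was 68.0% G or C with 21 CG dinucleotides, and the *Tgfb1* promoter was 75.2% G or C, also with 21. A promoter was listed for 8 of the 10 genes. Among the 9 listed promoters of these genes (*Tgfbr1* has 2), the short SMAD-binding letters CAGAC occurred on either strand in 4, none of which belonged to *Inhba*, *Inhbb* or *Tgfb1*, and in 42.2% of all promoters. The palindrome GTCTAGAC, which is known as a SMAD element and shares the letters AGAC with the first, occurred in none of them and in 0.167% of all promoters. The AP-1 letters TGANTCA occurred in none of them and in 6.75% of all promoters.

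Libraries held 18389235 to 23440550 counts, so that 3 counts, taken as the detection floor, corresponded to 0.125 to 0.162 CPM (counts scaled to library size by TMM factors). *Smad4* itself was at 33.7 to 35.5 CPM in the 4 Smad4-off libraries and at 97.3 to 117 CPM in the 4 Smad4-on libraries, so the labelled states did not overlap. *Smad7*, a standard TGFβ target, was at 17.8 to 30.1 CPM under SB505124 and at 67.2 to 155 CPM under TGFβ1. Of 7 epithelial markers, 6 were above the floor in every library, but *Epcam* was only at 0.153 to 2.11 CPM. *Krt7* separated the lines, at 474 to 648 CPM in B73 and 12.6 to 28.7 CPM in B87. The epithelial markers also shifted with treatment. In Smad4-on cells *Cdh1* was at 468 and 109 CPM in B73 and at 80.5 and 11.5 CPM in B87 (SB505124, then TGFβ1). *Krt19* was at 1570 and 299 CPM in B73 and at 728 and 153 CPM in B87. *Krt8*, *Krt18* and *Sox9* were instead higher under TGFβ1 there in both lines. The 6 fibroblast markers summed to 1.51 to 5.86 CPM in B73 and to 43.8 to 646 CPM in B87. Most of this was *Col1a1* (25.9 to 627 CPM in B87), while *Lum* was at 0 in every library. Of the other marker lists, 5 leukocyte genes summed to 1.32 to 6.33 CPM, 4 endothelial genes to 0.702 to 26.0 CPM and 4 acinar genes to 0.408 to 1.33 CPM. In bulk libraries such as these, fewer cells of a type and less RNA per cell cannot be told apart.

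Ligand and receptor genes passed for TGFβ1 relative to SB505124 in Smad4-on cells, whereas only ligand genes passed in Smad4-off cells. The estimate was largest for the activin βA gene in Smad4-on cells and for the activin βB gene in Smad4-off cells. In Smad4-on cells, *Tgfb1*, *Inhba* and *Inhbb* rose and *Tgfbr2*, *Tgfbr3* and *Acvr1b* fell with TGFβ1 relative to SB505124. These 6 of 10 genes had an adjusted p under 0.05 (edgeR's quasi-likelihood test with the line as a term, Benjamini-Hochberg adjusted over all tested genes), beside 33.2% of all tested genes. In the direction of a rise the count was 3, beside 15.6% of all genes, and in the direction of a fall it was also 3, beside 17.6%. By the study's rule, which also asks for more than a 2-fold change, 3 genes were called (*Inhba*, *Inhbb* and *Tgfbr3*), beside 13.9% of all genes. The fold-change estimates of all 5 ligand genes were above 0 and those of all 5 receptor genes were below 0. Their medians on the log2 scale were 0.61 and -0.55, whereas the median of all tested genes was -0.02. In Smad4-off cells 3 of 10 genes passed, beside 13.2% of all genes, and these were *Tgfb1*, *Inhba* and *Inhbb*, which made 3 rises beside 6.96%. With more than a 2-fold change 2 were called there, beside 5.93%. Of the 5 receptor genes 0 passed by this test, and 1 had an unadjusted p under 0.05 (*Acvr1b*). *Tgfbr3* passed when only the 4 Smad4-off libraries were fitted (-1.01 on the log2 scale, edgeR adjusted p = 0.00299). Estimates of 4 of the 5 receptor genes were below 0 in Smad4-off cells as well. The difference of the TGFβ1 effect between the *Smad4* states did not pass for *Tgfbr2* (-0.41 ± 0.20), *Tgfbr3* (-1.71 ± 0.92) or *Acvr1b* (-0.45 ± 0.20). Their edgeR adjusted p were 0.547, 0.584 and 0.493.

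**Figure D1:**
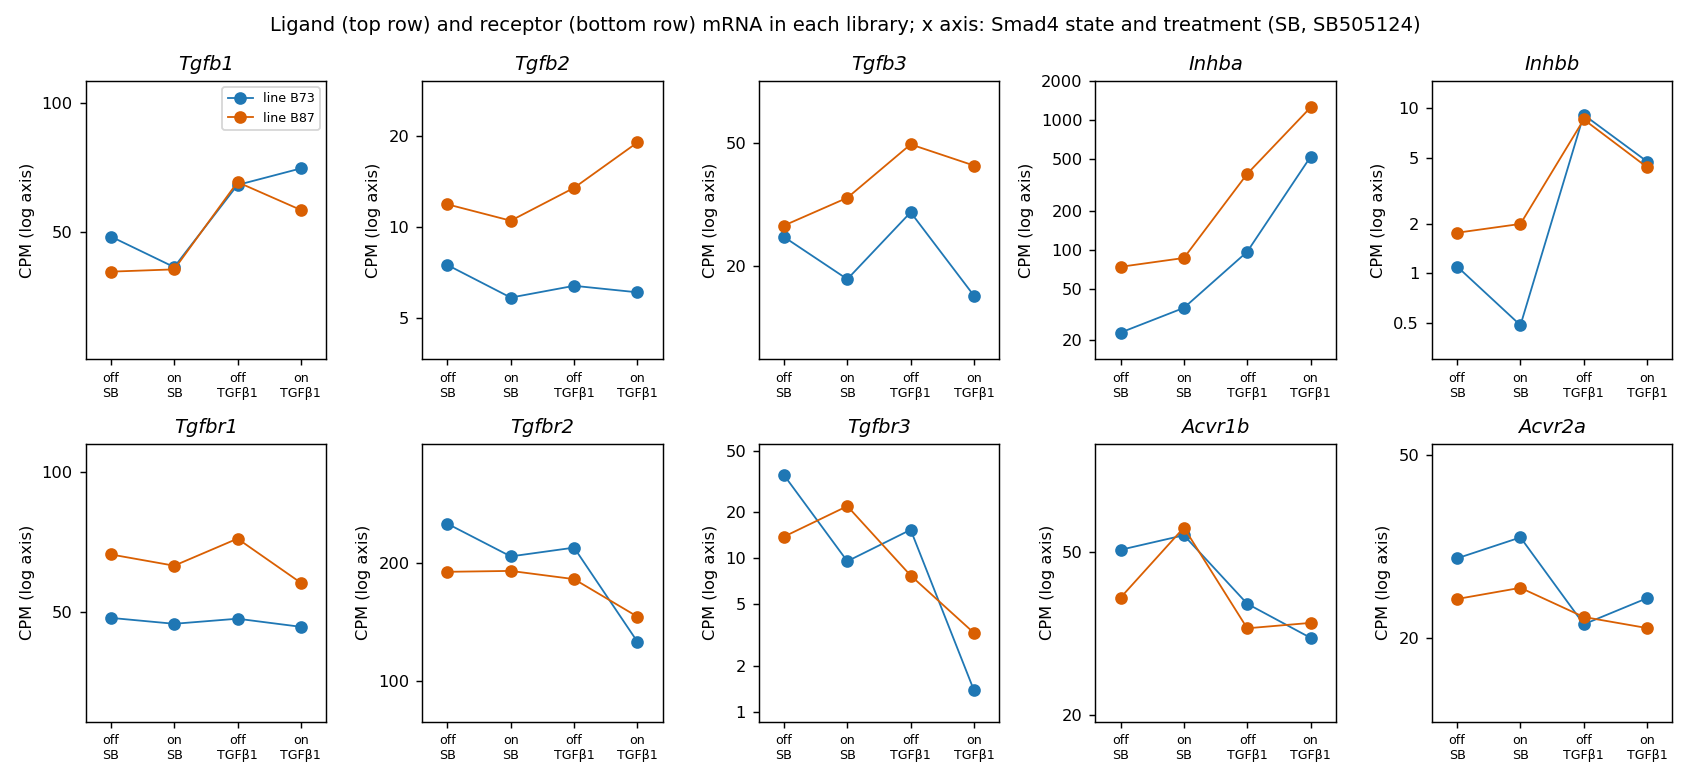
Level of each of the 10 genes in each library, in CPM on a log axis, by Smad4 state (off, on) and treatment (SB505124 or TGFβ1). Each point is 1 library and the lines join the 4 libraries of B73 and of B87. *Inhba* spanned 23.0 to 524 CPM in B73 and 74.1 to 1260 CPM in B87, and *Tgfbr3* was lowest in the Smad4-on TGFβ1 library of both lines (1.38 and 3.26 CPM).

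*Inhba* (chr13:16011851-16031621, plus strand) encodes the βA subunit that forms activin A. In B73 it was at 23.0 CPM in Smad4-off cells under SB505124, 35.7 CPM in Smad4-on cells under SB505124, 96.9 CPM in Smad4-off cells under TGFβ1 and 524 CPM in Smad4-on cells under TGFβ1. In B87 the levels in the same order were 74.1, 86.7, 387 and 1260 CPM. Both lines had the same order of the 4 conditions, and within each line both TGFβ1 libraries were above both SB505124 libraries. *Inhba* was 14.7-fold higher under TGFβ1 than under SB505124 in Smad4-on cells (log2 fold change 3.87 ± 0.20 SE, n = 2 libraries per group, edgeR adjusted p = 7.76e-05). In Smad4-off cells it also rose, by 2.24 ± 0.19 on the log2 scale (adjusted p = 0.00113, edgeR). The rise in Smad4-on cells was of the same size in both lines, at 3.87 in B73 and 3.86 in B87 on the log2 scale. The fibroblast marker sum was also higher under TGFβ1 in each *Smad4* state of both lines. It was at 1.51 and 5.86 CPM in Smad4-on cells of B73 and at 152 and 646 CPM in those of B87 (SB505124, then TGFβ1). In Smad4-on cells of B87, *Col1a1* rose (119 and 627 CPM). There *Pdgfra* (6.4 and 3.52 CPM) and *Pdgfrb* (27.1 and 15.8 CPM) were lower under TGFβ1, and *Dpt*, *Fap* and *Lum* did not exceed the floor. The part of this sum in the rise of *Inhba* was not tested. Across the 4 groups the mean levels were 48.6 ± 36.1, 61.2 ± 36.1, 242 ± 205 and 891 ± 519 CPM (SD, n = 2), and the libraries of a group are those of the different lines.

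*Inhba* was also the 1 gene of the 10 that changed with *Smad4* by this test. This comparison shares the Smad4-on TGFβ1 libraries with the TGFβ1 comparison in Smad4-on cells. Under TGFβ1 its level with *Smad4* on was 4.15-fold that with *Smad4* off (log2 fold change 2.05 ± 0.18, edgeR adjusted p = 0.00237), with a log2 difference of 2.43 in B73 and 1.70 in B87. It was 1 of 10 genes that passed, beside 6.8% of all tested genes (3.52% as higher with *Smad4* on), and 1 of 10 called with the 2-fold rule, beside 3.12%. Under SB505124 the *Inhba* estimate was 0.42 ± 0.19 on the log2 scale and did not pass (edgeR adjusted p = 0.417, 95% interval -0.02 to 0.86). The interaction, which asks whether the TGFβ1 effect was larger with *Smad4* on, was 1.63 ± 0.26 on the log2 scale for *Inhba* and did not pass (edgeR adjusted p = 0.106). DESeq2 with the line gave an adjusted p of 1.03e-06 for the same term, and edgeR without a filter on low counts gave 3.5e-06. Of the 10 genes, 0 passed for the interaction by the edgeR test, 1 had an unadjusted p under 0.05 (*Inhba*), and 0.196% of all tested genes passed (0.189% with the 2-fold rule).

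Calls for *Inhba* depended on whether the line was in the model. Without this replicate block, edgeR gave adjusted p = 0.0515 for the TGFβ1 effect in Smad4-on cells, 0.275 in Smad4-off cells and 0.457 for the *Smad4* effect under TGFβ1, with log2 fold changes of 3.86, 2.32 and 1.88. DESeq2 without the block kept the first (adjusted p = 0.00116) and lost the others (adjusted p = 0.148 and 0.377). With the line in the model, *Inhba* passed these 3 comparisons with each of the 8 libraries left out in turn, and the estimates ran from 3.67 to 4.07, from 1.93 to 2.51 and from 1.77 to 2.36.

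*Inhbb* (chr1:119415465-119422248, minus strand) encodes the βB subunit of activin B. It was a low-level gene, with 22 and 9 counts in the SB505124 libraries of B73 (Smad4 off and on) and 212 and 93 counts under TGFβ1. In B87 the counts were 40 and 48 under SB505124 and 171 and 86 under TGFβ1. In CPM, the SB505124 libraries lay between 0.486 and 1.99 and the TGFβ1 libraries between 4.38 and 9.08, with no overlap. *Inhbb* rose by 1.91 ± 0.48 on the log2 scale in Smad4-on cells (edgeR adjusted p = 0.0218) and by 2.66 ± 0.46 in Smad4-off cells (edgeR adjusted p = 0.0129). Unlike *Inhba*, both lines had less *Inhbb* with *Smad4* on under TGFβ1, at 4.74 against 9.08 CPM in B73 and 4.38 against 8.51 CPM in B87. This difference did not pass (log2 fold change -0.95 ± 0.41, edgeR adjusted p = 0.223, 95% interval -1.93 to 0.03), but passed when only the 4 TGFβ1 libraries were fitted (-0.95, edgeR adjusted p = 0.0383). In Smad4-on cells the *Inhbb* call was lost without the SB505124 library of B73 (1.24, edgeR adjusted p = 0.0592) and without the TGFβ1 library of B73 (1.56, adjusted p = 0.0947). In Smad4-off cells it was lost without either library of B73 or the SB505124 library of B87 (2.27 to 2.86, adjusted p = 0.0657 to 0.08). Both calls were lost in edgeR without the replicate block (1.86 and 2.62, adjusted p = 0.0971 and 0.11), and both were kept in DESeq2 without it (adjusted p = 0.0259 and 0.00156).

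*Tgfb1* (chr7:25687002-25705077, plus strand), the ligand that was also added as protein, changed less than the activin genes. Its message was at 48.8, 41.4, 64.4 and 70.4 CPM in B73 (Smad4 off and on under SB505124, then Smad4 off and on under TGFβ1). In B87 it was at 40.4, 40.9, 65.4 and 56.3 CPM in the same order. All 4 TGFβ1 libraries were above all 4 SB505124 libraries, by a modest margin. *Tgfb1* rose 1.53-fold in Smad4-on cells (log2 fold change 0.61 ± 0.11, edgeR adjusted p = 0.00719) and by 0.55 ± 0.11 on the log2 scale in Smad4-off cells (edgeR adjusted p = 0.0243). Its difference between Smad4-on and Smad4-off cells was -0.04 ± 0.11 under TGFβ1 and -0.11 ± 0.11 under SB505124 on the log2 scale, with 95% intervals from -0.31 to 0.23 and from -0.38 to 0.16. The call in Smad4-on cells was lost without the SB505124 library of B73 (0.54, edgeR adjusted p = 0.0516). The call in Smad4-off cells was lost without either TGFβ1 library or the SB505124 library of B87 (0.45 to 0.66, adjusted p = 0.064 to 0.196) and in edgeR without the replicate block (0.54, adjusted p = 0.124), but not in DESeq2 without it (0.55, adjusted p = 0.0223).

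*Tgfb2* (chr1:186622792-186705989, minus strand) and *Tgfb3* (chr12:86056745-86079041, minus strand) encode the other TGFβ isoforms, and neither passed for TGFβ1 or for *Smad4* by the edgeR test on all 8 libraries. *Tgfb2* was at 7.48, 5.83, 6.38 and 6.07 CPM in B73 and at 11.9, 10.5, 13.5 and 19.1 CPM in B87, so that every B87 library was above every B73 library. Its TGFβ1 estimate in Smad4-on cells was 0.51 ± 0.24 on the log2 scale (adjusted p = 0.153, edgeR), made of 0.06 in B73 and 0.86 in B87. It ran from 0.07 to 0.85 with a library left out, and passed without the Smad4-on TGFβ1 library of B73 (0.85, edgeR adjusted p = 0.034). *Tgfb3* was at 24.9, 18.2, 29.9 and 16.1 CPM in B73 and at 27.1, 33.3, 49.5 and 42.3 CPM in B87. Within both lines its highest library was the Smad4-off TGFβ1 library, and the TGFβ1 estimate in Smad4-off cells was 0.54 ± 0.26 on the log2 scale (adjusted p = 0.222, edgeR). That estimate ran from 0.14 to 1.01 with a library left out, and passed when only the 4 Smad4-off libraries were fitted (0.58, edgeR adjusted p = 0.0375). The value of *Tgfb3* is less certain than those of the other ligands, because 7.34% of the 75-base stretches of its transcripts also occur on opposite-strand transcripts. The opposite-strand genes that share exon bases with it had at most 7 counts, and *Ttll5*, which overlaps it with 474 to 943 counts, shares 0 exon bases.

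**Figure D2:**
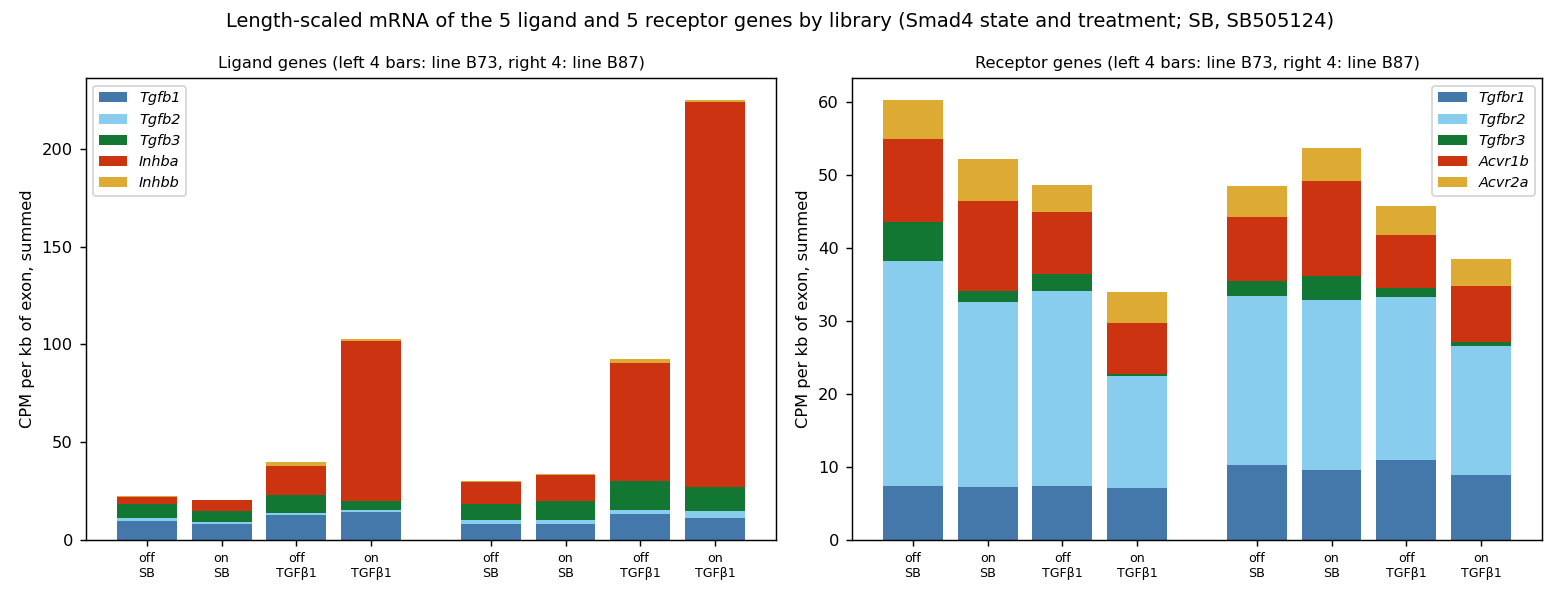
Length-scaled mRNA of the 5 ligand genes (left) and the 5 receptor genes (right), in CPM per kb of exon, stacked by gene with 1 bar per library (B73 left, B87 right within each panel). The ligand sum was highest in the Smad4-on TGFβ1 library of each line (103 and 225) and the receptor sum was lowest there (34.0 and 38.5).

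On a scale corrected for transcript length (CPM per kb of exon), the ligand message was mostly that of TGFβ isoforms under SB505124 and mostly *Inhba* in Smad4-on cells under TGFβ1. The 5 ligand genes summed to 22.2, 20.3, 40.0 and 103 CPM per kb in B73 and to 30.1, 33.8, 92.5 and 225 CPM per kb in B87. *Inhba* made up 16.2%, 27.5%, 37.9% and 79.7% of this sum in B73 and 38.5%, 40.1%, 65.5% and 87.5% in B87. *Tgfb1* made up 43.6% of it in B73 and 26.6% in B87 in Smad4-off cells under SB505124, and 13.6% and 4.97% in Smad4-on cells under TGFβ1, although its own level was higher there. *Inhbb* was between 0.114 and 2.13 CPM per kb and never exceeded 5.33% of the ligand sum. These sums and shares are descriptions with no test, and a message level says nothing of secreted or active protein.

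Among the receptors, *Tgfbr2* (chr9:116084293-116175360, minus strand), the type II receptor that binds TGFβ, was the most abundant per kb, at 15.4 to 30.8 CPM per kb, and made up 43.4% to 54.9% of the receptor sum. In B73 it was at 252, 208, 219 and 126 CPM, and in B87 at 190, 191, 182 and 146 CPM. The lowest library of each line was the Smad4-on TGFβ1 library. *Tgfbr2* fell by 0.55 ± 0.14 on the log2 scale with TGFβ1 in Smad4-on cells (edgeR adjusted p = 0.0261). In Smad4-off cells its estimate was -0.14 ± 0.14 (edgeR adjusted p = 0.58). Its *Smad4* effect under TGFβ1 was -0.55 ± 0.14 and did not pass (edgeR adjusted p = 0.0702), although it passed in DESeq2 with the line (adjusted p = 0.0115). The call was lost without the SB505124 library of either line or the TGFβ1 library of B73 in Smad4-on cells (-0.55 to -0.32, edgeR adjusted p = 0.103 to 0.125) and in edgeR without the replicate block (-0.55, adjusted p = 0.0838), but not in DESeq2 without it (-0.54, adjusted p = 0.0235).

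*Tgfbr3* (chr5:107106570-107289629, minus strand), which encodes betaglycan, a co-receptor that presents TGFβ2 and also binds inhibin, varied most among the receptors. It was at 34.7, 9.55, 15.3 and 1.38 CPM in B73 and at 13.8, 21.8, 7.71 and 3.26 CPM in B87. Within each line both TGFβ1 states were below the SB505124 state of the same *Smad4* setting, and the 2 Smad4-on TGFβ1 libraries (27 and 64 counts) were the lowest of all 8. *Tgfbr3* fell by 2.77 ± 0.70 on the log2 scale with TGFβ1 in Smad4-on cells (edgeR adjusted p = 0.0231), by nearly the same amount in both lines (-2.71 in B73, -2.70 in B87). In Smad4-off cells its estimate was -1.06 ± 0.60 and did not pass (edgeR adjusted p = 0.301). Within the lines this difference was -1.18 in B73 and -0.83 in B87. Its *Smad4* effect under TGFβ1 was -2.28 ± 0.71 and did not pass (edgeR adjusted p = 0.112), but passed without a filter on low counts (adjusted p = 0.000356) and in DESeq2 without the replicate block (-2.31, adjusted p = 0.0169). The call in Smad4-on cells was lost without the TGFβ1 library of B73 (-2.15, edgeR adjusted p = 0.114), without the SB505124 library of B87 (-1.66, adjusted p = 0.163) and in edgeR without the replicate block (-2.76, adjusted p = 0.0562), but not in DESeq2 without it (-2.74, adjusted p = 0.00054).

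The response of *Tgfbr3* to *Smad4* differed between the lines. Under SB505124, Smad4-on cells had less *Tgfbr3* than Smad4-off cells in B73 (9.55 against 34.7 CPM, -1.85 on the log2 scale) and more in B87 (21.8 against 13.8 CPM, 0.65). Under TGFβ1 both lines had less with *Smad4* on, at -3.38 in B73 and -1.22 in B87 on the log2 scale. The difference of the *Smad4* effect between the lines, B87 minus B73, was 2.37 ± 0.22 on the log2 scale (edgeR adjusted p = 0.0187, taken over both treatments), and it passed with each library left out in turn (2.20 to 2.52). *Tgfbr3* was the 1 gene of the 10 that passed for this term by the edgeR test, beside 0.406% of all tested genes (0.392% with the 2-fold rule). *Inhba* (-0.58 ± 0.14, edgeR adjusted p = 0.201) passed for it in DESeq2 with the line (adjusted p = 0.0499) and without a filter on low counts (adjusted p = 0.00694). Each line is a single tumor, so what separates the lines in genotype, hairpin or culture cannot be told apart.

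*Acvr1b* (chr15:101174067-101213679, plus strand), the type I receptor for activin, was at 50.6, 54.9, 37.4 and 30.9 CPM in B73 and at 38.7, 57.3, 32.6 and 33.6 CPM in B87. All 4 TGFβ1 libraries were below all 4 SB505124 libraries. *Acvr1b* fell by 0.80 ± 0.14 on the log2 scale in Smad4-on cells (edgeR adjusted p = 0.00569), a call that was lost at the threshold without the SB505124 library of B87 (-0.69, adjusted p = 0.0502). In Smad4-off cells its estimate was -0.35 ± 0.14 (edgeR adjusted p = 0.155). *Tgfbr1* (chr4:47353222-47414931, plus strand), the type I receptor for TGFβ, was at 46.4 to 48.5 CPM in the 4 libraries of B73 and at 57.7 to 71.8 CPM in those of B87. Its TGFβ1 estimates were -0.07 ± 0.09 and 0.06 ± 0.09 on the log2 scale in Smad4-on and Smad4-off cells, with 95% intervals from -0.29 to 0.15 and from -0.17 to 0.28. *Acvr2a* (chr2:48814109-48903269, plus strand), a type II receptor for activin, was at 29.8, 33.1, 21.4 and 24.4 CPM in B73 and at 24.3, 25.7, 22.2 and 21.0 CPM in B87. Its TGFβ1 estimate was -0.37 ± 0.13 in Smad4-on cells and did not pass (edgeR adjusted p = 0.0693). The value of *Acvr2a* is less certain, because *Orc4*, with 864 to 1360 counts, overlaps it on the opposite strand and shares 446 exon bases. Of the 75-base stretches of *Acvr2a* transcripts, 6.54% also occur on opposite-strand transcripts. Under SB505124, 0 of the 10 genes passed for *Smad4* by the edgeR test, beside 1.59% of all tested genes (1.09% with the 2-fold rule). There, 1 had an unadjusted p under 0.05 (*Acvr1b*, 0.34 ± 0.14 on the log2 scale), and 0 were called by DESeq2 with or without the line.

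**Figure D3:**
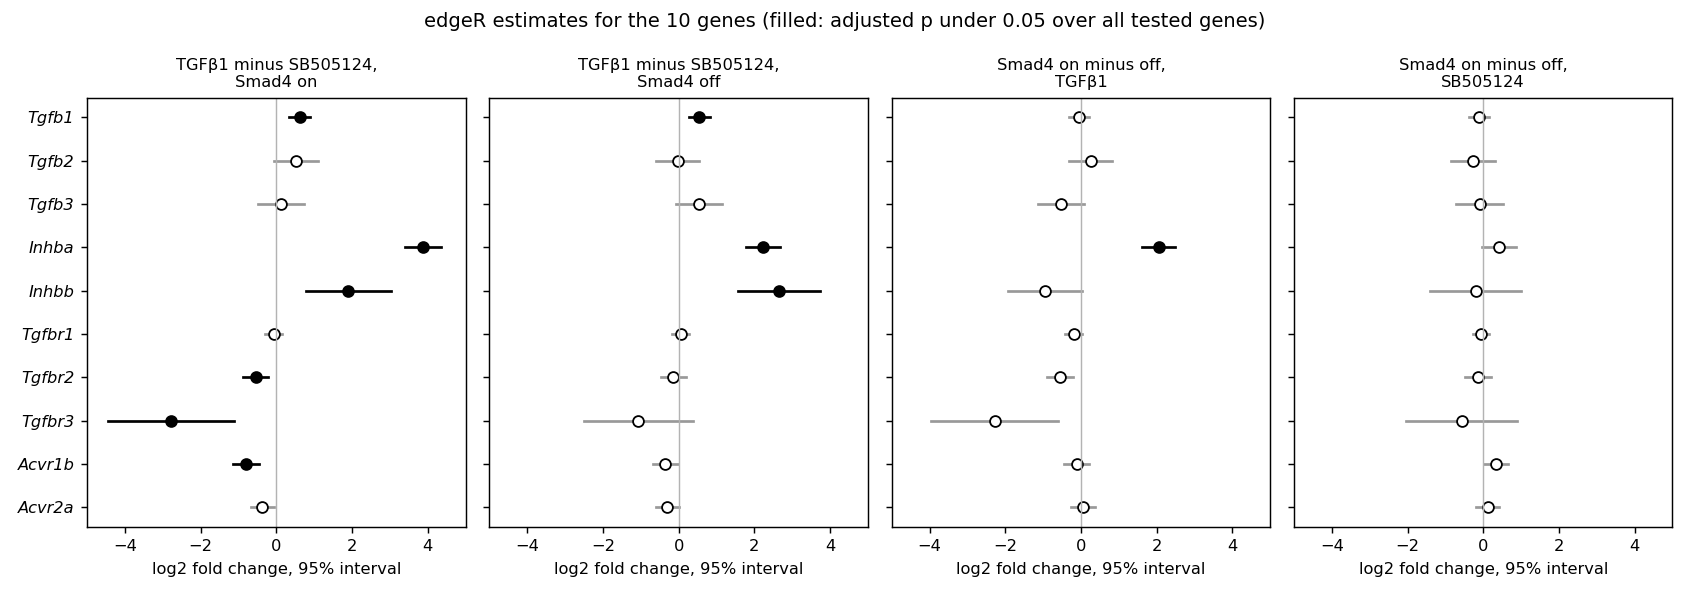
Log2 fold changes of the 10 genes in the 4 group comparisons, as points with 95% intervals from the edgeR model, filled where the adjusted p over all tested genes was under 0.05. Of the 10 genes, 6 are filled for TGFβ1 in Smad4-on cells, 3 for TGFβ1 in Smad4-off cells, 1 for *Smad4* under TGFβ1 and 0 for *Smad4* under SB505124.

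The lines differed in the ligands they made. Averaged over the 4 conditions, *Inhba* (1.56 ± 0.13 on the log2 scale, edgeR adjusted p = 0.000449), *Tgfb2* (1.06 ± 0.17, adjusted p = 0.00686), *Tgfb3* (0.77 ± 0.18, adjusted p = 0.0288) and *Tgfbr1* (0.44 ± 0.07, adjusted p = 0.00504) were higher in B87 than in B73. These were 4 of 10 genes, all in the same direction, beside 18.6% of all tested genes that differed between the lines and 8.92% that were higher in B87. With more than a 2-fold difference there were 2, beside 8.37%. The *Tgfb3* difference was lost without any 1 of 6 libraries (0.57 to 0.80, edgeR adjusted p = 0.0568 to 0.0972), and held without either Smad4-off SB505124 library. *Tgfb1*, the other receptors and *Inhbb* did not pass, with estimates between -0.21 and 0.40. The fibroblast marker sum, mainly *Col1a1*, was also higher in B87, and its part in these line differences was not tested. For the difference of the TGFβ1 effect between the lines, 0 of the 10 genes passed by the edgeR test, as did 0% of all tested genes, 1 gene had an unadjusted p under 0.05 (*Inhbb*, -1.36 ± 0.46), and 0 were called by DESeq2 with the line.

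Other genes of the pathway were followed in 38 genes listed by role, of which 32 passed the filter on low counts. With TGFβ1 in Smad4-on cells, 20 of the 32 rose, beside 15.6% of all tested genes, and 2 fell, beside 17.6%. In Smad4-off cells 16 of the 32 rose, beside 6.96% of all tested genes. With *Smad4* on under TGFβ1, 7 were higher than with *Smad4* off, beside 3.52% of all tested genes. Under SB505124, 0 of the 32 passed for *Smad4* by the edgeR test, beside 1.59% of all tested genes. There, 6 had an unadjusted p under 0.05, and the share of all tested genes at that threshold was not counted. Genes listed under TGFβ latency and activation were among those with the largest rises. The role was assigned by list, and binding of latent TGFβ by *Ltbp2* was not tested. *Ltbp2*, a latent TGFβ binding protein family member, was at 0.81 CPM under SB505124 and 14.3 CPM under TGFβ1 in Smad4-on cells of B73, and at 2.12 and 92.8 CPM in those of B87 (5.13 ± 0.65 on the log2 scale, edgeR adjusted p = 0.00161). *Thbs1*, an activator of latent TGFβ, rose by 4.45 ± 0.43 (adjusted p = 0.000574) in the same comparison, and *Itgb6*, a subunit of an integrin that activates latent TGFβ, rose by 2.56 ± 0.50 (adjusted p = 0.00863). *Itgb6* was low, at 1.51 and 12.1 CPM in Smad4-on cells of B73 (SB505124, then TGFβ1) and at 0.707 and 2.6 CPM in those of B87. Of the 11 genes of this role, 7 rose and 1 fell, beside 15.6% and 17.6% of all tested genes.

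Of the 3 extracellular antagonists and decoys, 2 rose with TGFβ1 in Smad4-on cells, beside 15.6% of all tested genes, and *Bambi*, a decoy receptor named here after its value was seen, did not pass (-0.39 ± 0.47, edgeR adjusted p = 0.558). *Fstl3*, which binds and neutralizes activin, was at 1.40 CPM under SB505124 and 19.6 CPM under TGFβ1 in Smad4-on cells of B73, and at 2.16 and 21.5 CPM in those of B87 (3.56 ± 0.30 on the log2 scale, edgeR adjusted p = 0.000335). Under TGFβ1 it was higher by 1.63 ± 0.27 with *Smad4* on (edgeR adjusted p = 0.0178). *Fst*, which encodes follistatin, rose by 1.51 ± 0.35 with TGFβ1 in Smad4-on cells (adjusted p = 0.0158), and its levels under TGFβ1 were 17.0 CPM in B73 and 64.2 CPM in B87. Intracellular inhibitors of SMAD signaling also rose in Smad4-on cells, among them *Pmepa1* by 3.87 ± 0.26, *Skil* by 2.51 ± 0.09 and *Smad7* by 2.48 ± 0.12 on the log2 scale (adjusted p = 0.000151, 2.62e-05 and 5.48e-05 by edgeR). All 3 rose in Smad4-off cells as well, by 3.61, 1.73 and 1.93. Of the 10 intracellular transducers and inhibitors, 7 rose in each *Smad4* state, beside 15.6% of all tested genes with *Smad4* on and 6.96% with *Smad4* off.

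Other receptor genes rose where *Tgfbr2*, *Tgfbr3* and *Acvr1b* fell. With TGFβ1 in Smad4-on cells, *Acvrl1* rose by 2.33 ± 0.43 on the log2 scale (adjusted p = 0.00688, edgeR), *Acvr1* by 2.02 ± 0.08 (adjusted p = 3.86e-05) and *Bmpr2* by 1.29 ± 0.14 (adjusted p = 0.000961). These encode type I and type II receptors best known for BMP signals, and 3 of the 5 tested genes of this role rose, beside 15.6% of all tested genes. *Acvr1* was at 35.5 CPM in B73 and 32.4 CPM in B87 under SB505124 and at 149 and 127 CPM under TGFβ1 in Smad4-on cells. *Acvrl1* was low, with 5 to 74 counts and at most 3.77 CPM over the libraries. Of the 8 other ligand genes, 3 were tested. *Gdf11*, a ligand of the activin receptors, rose by 0.76 ± 0.18 (edgeR adjusted p = 0.0167). *Lefty1*, an inhibitor of Nodal, fell by 1.85 ± 0.46 (adjusted p = 0.0211), from 4.75 to 1.27 CPM in B73 and with only 1 count left in the Smad4-on TGFβ1 library of B87. *Inhbc*, *Inhbe*, *Mstn* and *Lefty2* had 0 counts in all 8 libraries, which allows at most 0.125 to 0.162 CPM, and *Nodal* had at most 1 count.

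**Figure D4:**
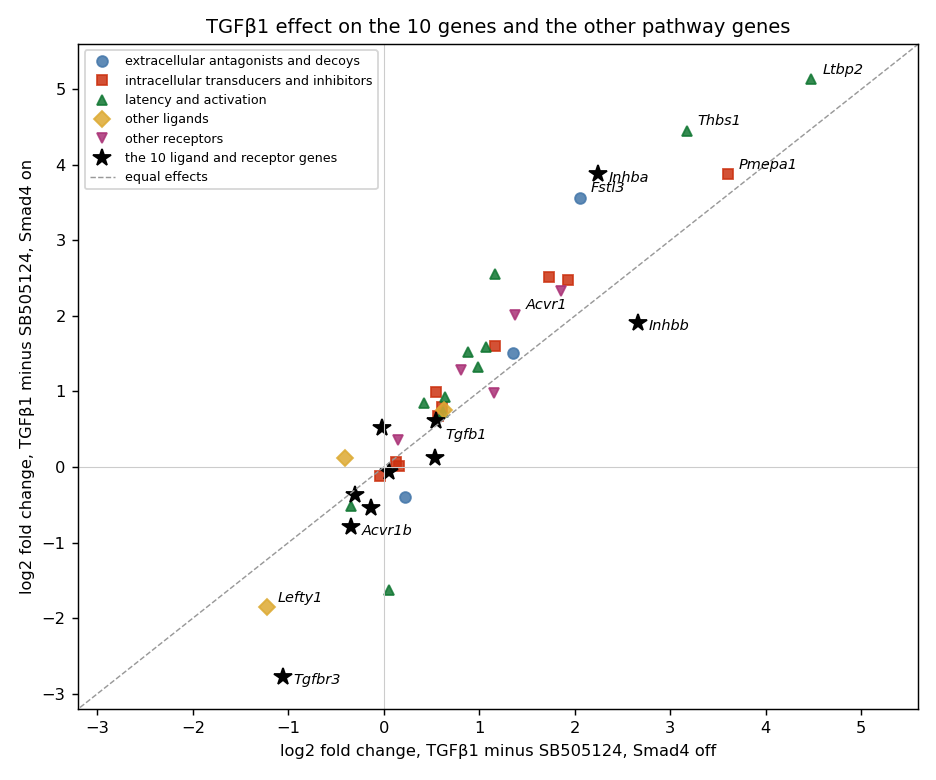
TGFβ1 effect (log2 fold change, TGFβ1 minus SB505124) in Smad4-off cells (x axis) and Smad4-on cells (y axis) for the 10 genes (stars) and the 32 other tested pathway genes (symbols by role), with a dashed line of equal effects. *Inhba* lies above the line (2.24 and 3.87), *Inhbb* below it (2.66 and 1.91), and *Tgfbr3* is the lowest point (-1.06 and -2.77).

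The genes whose levels followed a member most closely were found by Pearson's r of log2 CPM over the 8 libraries, among 14300 other tested genes and for the 3 members with the widest range of group means. *Inhba* was followed by *Tnc* (r = 0.998), which encodes tenascin C, and by *Ddah1* (0.992) and *Golt1b* (0.989). *Tgfbr3* was followed by *Rhbdd3* (0.986), *Fut10* (0.986) and *Xkr5* (0.982). *Inhbb* was followed by *Pskh1* (0.990), *Vmn1r43* (0.982) and *Exoc3l* (0.979). The 8 points share 4 conditions and 2 lines, and the largest of so many coefficients is high by selection, so these are descriptions only.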

How the data were processed

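RNA-seq was analysed from 8 libraries of lines B73 and B87. Per the labels and the study's methods, poly(A) RNA was made into stranded TruSeq libraries and sequenced as single-end 75-bp reads. The submitters' processing notes list FastQC 0.11.5, Trimmomatic 0.36, STAR 2.5.3a, featureCounts 1.6.3 and GRCm38 (mm10). The authors deposited raw counts per gene without normalization or pooling, with 1 column per library. Whether strand or reads aligning to several genes were counted was not given in the sources used here, so overlapping genes are less certain.

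Counts were tested with edgeR 4.0.16 in R 4.3.3 (TMM factors, filterByExpr by group, quasi-likelihood F-test). The model held the 4 groups and the line. A gene passed at a Benjamini-Hochberg adjusted p under 0.05 over the 14301 tested genes, and was called when it also changed more than 2-fold, the study's thresholds. The standard error of a log2 fold change was approximated from the F statistic (absolute estimate over root F), and 95% intervals came from the t distribution with the model's degrees of freedom. CPM are counts divided by the library total times its TMM factor. CPM per kb used the transcript length in the table. Log2 fold changes within a line used a prior count of 2. Floors of 3 counts cover counting error only. Counts of genes at an unadjusted p under 0.05 have no share of all tested genes beside them and carry no conclusion. In the main model the p-values rest on the spread left after the group and line terms, so on how far condition effects differed between the 2 lines.

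The pairing comes from the line named in each title. Deviations of the lines from the group mean correlated between groups at r = 0.642 to 0.774 (6 pairs of groups). The study's methods name DESeq2 and no covariate, and DESeq2 1.42.0 with and without the line was among the alternatives, with DESeq2 size factors, other filters on low counts, only the 4 libraries compared, no fold rule and leaving out each library.

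Named genes were all 10 members, up to 3 genes per role of the 38 listed pathway genes that passed in a group comparison (by largest change), *Smad4* and *Smad7* as checks of state and treatment, and the 3 genes most like each of the 3 most variable members. One allele of the model and a further check gene are not reported here. Members and lists were chosen with earlier results of these data known. The scripts were tested on simulated counts of 14039 genes for the TGFβ1 effect in Smad4-on cells, where 200 genes had a log2 fold change of 2 built in. Recovery of these genes was 82.5% for edgeR with the line, 55.5% for edgeR with no line term and 79.5% for DESeq2 with the line. False calls made up 4.62%, 0% and 4.79% of all calls by these fits, in that order. These figures cannot show which model suits the real counts, where the *Smad4* effect on *Tgfbr3* differed between the lines. Coordinates are those of the table on GRCm38, and promoters are from RefSeq on GRCm38.p6.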

Additional observations from a re-analysis of the deposited data

Results flagged for a closer look

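The difference between the lines in the *Smad4* effect on *Tgfbr3*, 2.37 on the log2 scale (B87 minus B73, SE 0.219, edgeR adjusted p = 0.0187), was singled out because a test of the difference itself passed. Averaged over SB505124 and TGFβ1, *Smad4* restoration went with a larger loss of *Tgfbr3* in B73 than in B87. Under SB505124 alone the estimates within the lines had opposite signs, at -1.85 in B73 and 0.65 in B87, from 1 library per line and state. The term was added after the data were seen, and its cause was not tested.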

How the results depend on the processing

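Called genes are counted here among the 10. Without the replicate block, edgeR called 0 of them for TGFβ1 in Smad4-on cells, 0 in Smad4-off cells and 0 for *Smad4* under TGFβ1, beside 3, 2 and 1 with the line. Of all tested genes, edgeR called 7.24%, 1.17% and 0.252% without the block, and 13.9%, 5.93% and 3.12% with the line. DESeq2 without the replicate block called 1 for TGFβ1 in Smad4-off cells. It called 1 for *Smad4* under TGFβ1 as well, but this was *Tgfbr3* (-2.31, adjusted p = 0.0169) and not *Inhba* (1.89, adjusted p = 0.377). Dropping the 2-fold rule gave 6 for TGFβ1 in Smad4-on cells and 4 for the line difference, beside 33.2% and 18.6% of all tested genes. Requiring at least 10 counts in every library gave 1 for TGFβ1 in Smad4-off cells, because *Inhbb* was then not tested. With no filter, 2 were called for *Smad4* under TGFβ1 and 1 for the interaction, and DESeq2 with the line also called 1 for the interaction. Shares of all tested genes were not counted for the filter, DESeq2 and leave-out alternatives. With each library left out in turn the counts ran from 1 to 3 for TGFβ1 in Smad4-on cells, from 1 to 2 in Smad4-off cells and from 1 to 2 for the line difference. The *Tgfbr3* estimate for TGFβ1 in Smad4-off cells ran from -1.81 to 0 (no change estimated without the Smad4-off SB505124 library of B73). The 15 values that passed kept their direction in every alternative. Of the 80 values, 56 passed in no setting, and 25 of these changed sign in at least 1 alternative, 4 of them in one other than leaving out a library. With 1 library per line and group, a lone library left in a group was assumed to vary like the rest. The SE for TGFβ1 was 0.46 to 0.48 for *Inhbb* and 0.60 to 0.70 for *Tgfbr3*, so small changes of these genes were not resolved. For *Tgfbr3* the *Smad4* effect also differed between the lines, and the main model holds no term for this.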
